A study of Mus musculus with 4 samples.

Results

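In the crypts of the small intestine, some cells divide while they already carry the RNA of goblet cells, the mucus-secreting cells of the gut lining. These cycling goblet cells are described here in mice 7 days after bone marrow transplantation. They were taken from single-cell RNA libraries by a rule on their counts of unique molecular identifiers (UMIs, 1 per captured RNA molecule). A kept barcode had at least 500 genes, at least 1000 UMIs and at most 20% of its UMIs in mitochondrial genes. A cycling goblet cell had at least 6 UMIs summed over the cell-cycle genes Mki67, Top2a, Ube2c, Ccnb1, Cenpa, Birc5 and Cdk1, and at least 0.3% of its UMIs in the goblet genes Muc2, Tff3, Fcgbp, Zg16, Clca1 and Agr2. It also had no UMI of the stem cell gene Lgr5 or of the leukocyte gene Ptprc, and under 5% of its UMIs in the Paneth genes Lyz1 and Defa. The rule found 850 cells among 12285 kept cells, from 16565 deposited barcodes. The cells were thus chosen by measured levels of these genes. Where such levels are given, they are a description without a test.

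All recipients were female C57BL/6 mice aged 8 to 12 weeks that had been lethally irradiated. The syngeneic group, labelled control, received C57BL/6 marrow, and the allogeneic group, labelled as having graft-versus-host disease, received BALB/c marrow. Each group had 2 libraries, each a pool of 3 to 4 mice, so that every comparison rested on 2 pools against 2. The labels do not explain the letters "KO" with which all library names begin. Runs of 4 values list both syngeneic libraries first, by replicate number, and then both allogeneic ones.

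Crypt stem cells give rise to dividing progenitors, and a progenitor in which Notch signalling is low expresses the transcription factor Atoh1 and takes the secretory fate. Spdef and Creb3l1 act later and drive the making and packing of mucin, after which most goblet cells stop dividing. In graft-versus-host disease donor T cells attack the gut, and the interferon-gamma they release acts on epithelial cells through transcription factors such as Irf1, which switch on antigen presentation and antimicrobial genes. The comparison asks how dividing goblet cells differ between the 2 kinds of transplant.

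The libraries held 18262459, 14961466, 16755124 and 26677842 UMIs. Mitochondrial counts removed 14.6%, 14.9%, 27.2% and 11.2% of their barcodes. Library allogeneic 2 stood apart. Its members had a median of 4.07% mitochondrial UMIs, against 7.02%, 6.59% and 6.88% in the other libraries. Mki67 was counted in 66.7% of its members, against 84.8%, 82.4% and 90.7% in the other libraries. Ube2c was counted in 93.2%, against 91.9%, 97.6% and 91.5%. The other cycling genes of the rule also differed less than Mki67 in this way. Car1, a carbonic anhydrase typical of colon epithelium, was counted in 23 of its 354 members (854 UMIs) and in no member of the other libraries. The 104 T lymphocytes of that library (cells with a UMI of Ptprc and of a Cd3 gene) held Car1 at 584 unscaled CPM (CPM is the count relative to the total of the summed cells, and is scaled by TMM, a normalisation between libraries, unless named unscaled). Results without this library, and without the members that held Car1, are given below. Any pair of libraries shared 2 to 7 barcode sequences, and 3 members had a barcode that also occurred in another library.

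By library the rule gave 197, 170, 129 and 354 members, which summed to 1796815, 1530965, 1592945 and 3102973 UMIs. They were 6.85% (95% exact binomial interval 5.96 to 7.84), 6.89% (5.92 to 7.96), 6.26% (5.25 to 7.39) and 7.25% (6.54 to 8.02) of kept cells. Intervals cover counting error only. The mean was 6.87% ± 0.0255 (SD, n = 2) in syngeneic and 6.76% ± 0.703 (SD, n = 2) in allogeneic libraries, a difference of -0.114 percentage points (2-sided exact permutation p = 1). The allogeneic values enclosed both syngeneic ones. Of all cycling cells within the same limits on stem, leukocyte and Paneth genes, the members made up 31.6%, 34.9%, 26.1% and 31.5%, a mean difference of -4.45 points (exact permutation p = 0.333, the smallest that 2 against 2 can give).

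The share of goblet RNA in these cells was lower after allogeneic transplant. The median member held 1.77% and 2.07% of its UMIs in the 6 goblet genes in the syngeneic libraries, and 0.836% and 0.806% in the allogeneic ones. Cells with at least 2% made up 43.7% and 51.8% of the syngeneic members and 13.2% and 13.3% of the allogeneic members. Since the limit of 0.3% cuts these distributions at different points, the share of members depended on it. With a limit of 1% the members were 4.94%, 5.63%, 2.62% and 2.93% of kept cells, a difference of -2.51 points (exact permutation p = 0.333), with both allogeneic libraries below both syngeneic ones. Near the limit, 143 members held 0.3 to 0.5% goblet UMIs and 77 cycling cells just outside it held 0.2 to 0.3%; near the other limit, 79 members had 6 or 7 cycling UMIs and 116 goblet-expressing cells had 4 or 5.

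**Figure D1:**
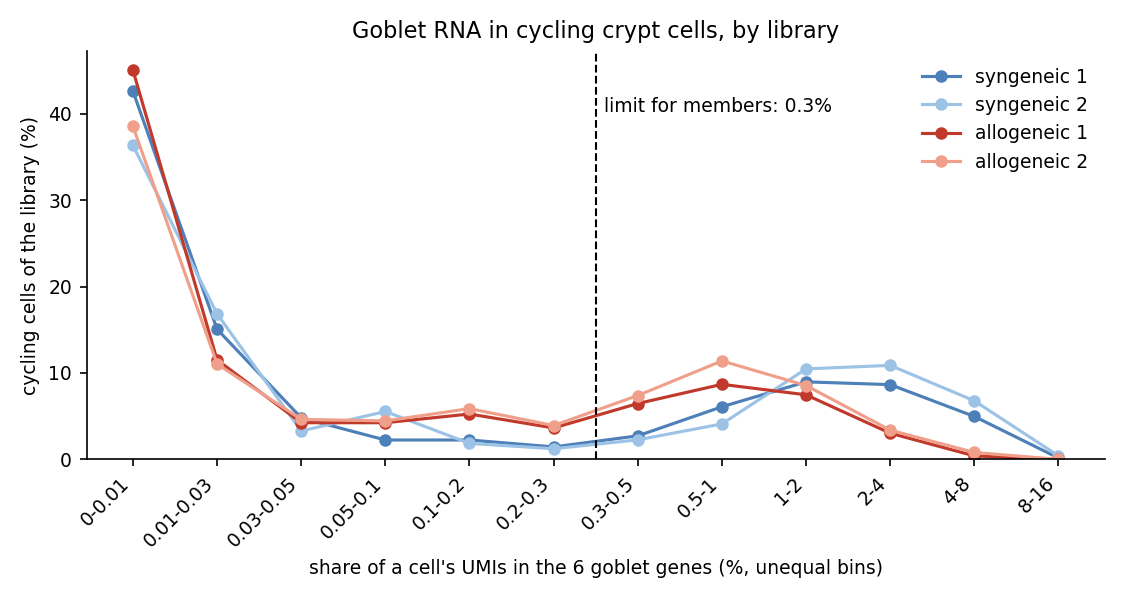
Share of UMIs in the 6 goblet genes (x axis, percent, unequal bins) among all cycling cells of each library that met the other limits (y axis, percent of those cells). Each line is 1 library and the dashed line is the limit for members; above it, both allogeneic lines run highest in the bin of 0.5 to 1%, and both syngeneic lines in the bins from 1 to 4%.

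Single goblet genes differed in how far they were apart. Muc2, the main mucin of the gut, was at 2216 and 2353 CPM in the syngeneic sums of members and at 966 and 858 in the allogeneic ones. Fcgbp, a mucus-layer protein, was at 1718, 1733, 614 and 430 CPM, and Zg16, a lectin of the mucus, at 5057, 6239, 341 and 1474 CPM. Tff3, a trefoil peptide that aids repair, was at 4340, 5587, 3714 and 2446 CPM, and Agr2, a disulphide isomerase needed to make mucin, at 6944, 8596, 3756 and 6729 CPM. Clca1 was at 515, 295, 222 and 174 unscaled CPM. In all 6 goblet genes both allogeneic libraries were below both syngeneic ones, as was the case for 21% of all tested genes. Agr2 alone made up 33.4%, 34.7%, 39.1% and 55.4% of the goblet UMIs of members. With Agr2 left out of the goblet sum, 177, 158, 101 and 167 cells met the rule, which were 6.16%, 6.40%, 4.90% and 3.42% of kept cells.

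Spdef and Atoh1, fate factors that the rule did not use, were found more often in members than in other cycling cells. This contrast is a description, without a test. Spdef, a master regulator of goblet maturation, was found in 29.6%, 31.0%, 29.3% and 30.1% of members when each cell was thinned to 4000 UMIs, which left out 11, 12, 13 and 38 shallower members. In the 1879 other cycling cells, which met the same limits but held less than 0.3% goblet UMIs, the shares were 0.556%, 0%, 1.16% and 3.81%; the 0 of 270 cells allows a share of up to 1.11%. Atoh1 was found in 30.6%, 32.9%, 37.1% and 33.5% of members and in 2.22%, 2.96%, 1.16% and 4.12% of the other cycling cells. Without thinning Spdef was found in 47.2%, 48.2%, 57.4% and 44.1% of members, at median depths of 8500, 8490, 10931 and 8035.5 UMIs. T lymphocytes, which should lack the gene, had it in 1.95% of 154 cells in allogeneic 1 and 0.962% of 104 cells in allogeneic 2, at median depths of 1879 and 2053 UMIs. Thinned to 2000 UMIs, 19.7% and 17.4% of the members of these libraries had Spdef, against 1.33% and 1.89% of their T lymphocytes. The 4 libraries lay within each other's counting intervals for both genes in members.

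**Figure D2:**
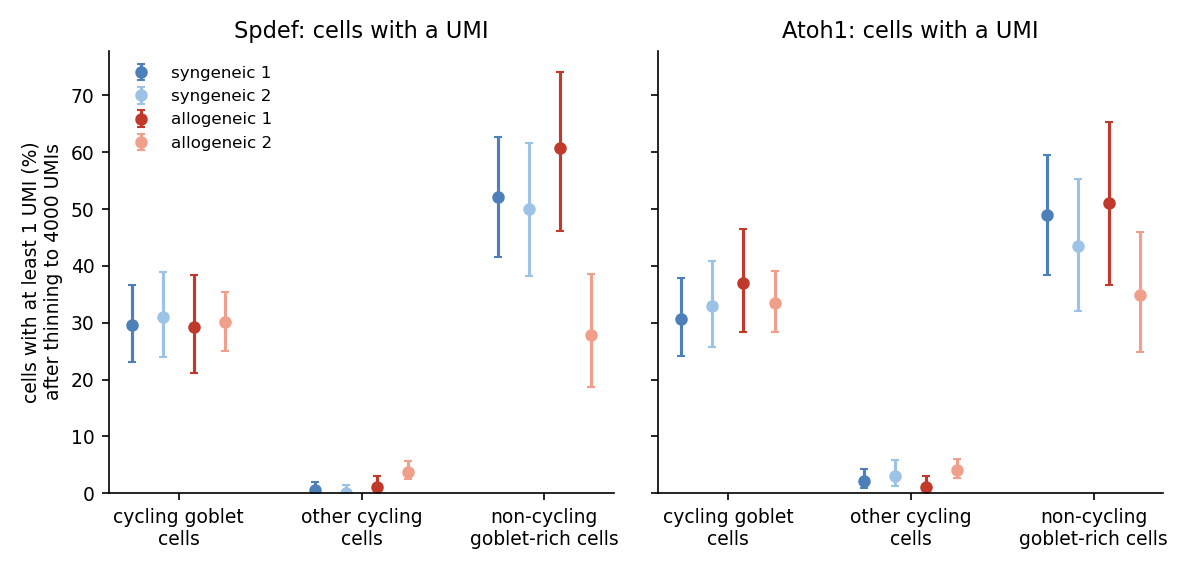
Percent of cells with at least 1 UMI of Spdef (left) or Atoh1 (right) after thinning each cell to 4000 UMIs, in cycling goblet cells, other cycling cells and non-cycling goblet-rich cells; points are libraries and bars are 95% exact binomial intervals. In cycling goblet cells Spdef sits between 29.3% and 31.0% in every library, far above the other cycling cells, where the highest is 3.81%.

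Further goblet products outside the rule were at higher levels in members than in other cycling cells of the same library, in each of the 4 libraries. These genes were picked for this contrast after their values were seen. They included the goblet peptide Spink4, at 7608, 9387, 4441 and 7042 CPM in members and 332, 136, 194 and 593 CPM in other cycling cells, and the mucin-branching enzyme Gcnt3, at 104, 108, 90.5 and 80.3 CPM against 3.56, 9.47, 6.94 and 8.63 CPM. Creb3l1 was at 118, 155, 192 and 120 CPM in members and at 15.5, 15.9, 24.7 and 21.7 CPM in other cycling cells. Olfm4, a marker of stem and early progenitor cells, showed the opposite order, with 555, 443, 387 and 205 CPM in members against 1761, 1534, 858 and 462 CPM. Markers of other secretory cells did not all go the same way. The Paneth list, under the rule's limit on such genes, summed to 7099, 7278, 6097 and 5272 unscaled CPM in members. In other cycling cells it summed to 1160, 564, 935 and 1464 unscaled CPM. The enteroendocrine list summed to 283, 317, 130 and 127 unscaled CPM in members. In other cycling cells it summed to 250, 164, 148 and 59.8, so that members were lower in allogeneic 1. Of that list the hormone Sct, given at the end, was higher in members in each library. The tuft list, also given at the end, was lower in members in each library.

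Dividing was rare in the cells of highest goblet content. Every cell was thinned to 4000 UMIs, which left out 1189, 1127, 762 and 2466 shallower kept cells. The shares are therefore of deeper cells, not of all cells with such goblet content. Cells that met the limit of 6 cycling UMIs were 60%, 50%, 52.5% and 65.0% of those with 0.3 to 1% goblet UMIs. At 1 to 2% they were 48.0%, 59.3%, 37.9% and 52.2%, and at 2 to 4% they were 50.6%, 58.8%, 17.0% and 36.1%. Among cells with 4 to 8% goblet UMIs they were 31.3%, 27.8%, 5.26% and 11.1%, from 67, 72, 19 and 36 cells. Above 8% they were 2 of 40 cells in syngeneic 2 and none of the 53, 15 and 40 cells in the other libraries, which allows shares of up to 5.66%, 20% and 7.5%. Both goblet and cycling genes belong to the rule, so this is a description of the cells around it.

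In each library members were deeper than the cells on either side of them. Their median depth was 8035.5 to 10931 UMIs by library, against 6184 to 9459.5 in other cycling cells and 3324.5 to 4438 in 758 non-cycling goblet-rich cells, which had at most 1 cycling UMI and at least 2% goblet UMIs. Scrublet called 2, 1, 0 and 8 members doublets, and 2, 2, 19 and 9 members held over 20000 UMIs. Results without these cells are given where they differ.

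Counts were then summed over the members of each library and compared between transplants. Of 8969 genes tested, 154 were called (1.72%), 90 higher (1.0%) and 64 lower (0.714%) in allogeneic members at an adjusted p under 0.05 (edgeR's quasi-likelihood test, Benjamini-Hochberg adjustment over all genes tested). Of the lower genes, 9 belonged to the rule. In each of the other 55, and in each of the 90, the groups did not overlap, as was the case for 19.9% of all tested genes with both allogeneic values above and 21% with both below. DESeq2 called 71 higher and 33 lower, of which 56 and 29 were shared. Without allogeneic 2 the counts were 400 and 475, and without allogeneic 1 they were 1556 and 993; in these fits the lone allogeneic library is assumed to vary like the syngeneic pair. Without syngeneic 1 they were 51 and 27, and without syngeneic 2 they were 64 and 35. Leaving out members with Car1 gave 88 and 64. Because the sums mix all members of a library, a gene held by fewer cells and a gene held at less RNA per cell cannot be told apart.

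The interferon-gamma response rose in these cells. Of 23 tested genes of that list, 16 were higher and none lower, with a median log2 fold change of 2.78 against 0.01 over all tested genes outside the rule. All 23 had both allogeneic libraries above both syngeneic ones, against 19.9% of all tested genes. Ubd, a ubiquitin-like modifier, had 0 and 0 UMIs in the syngeneic sums and 400 and 926 in the allogeneic ones, at least 313-fold higher per UMI when the syngeneic group is set at its limit of 3 counts (edgeR adjusted p = 6.62e-06). It was found in 62 of 129 and 199 of 354 allogeneic members and in none of the syngeneic members. The T lymphocytes of the same libraries held Ubd at 36.9 and 174 unscaled CPM. Members were at 231 and 349 CPM, which are scaled (TMM factors 1.09 and 0.855), so these values are not on the same measure. Thinned to 2000 UMIs, 27.0% and 24.9% of allogeneic members had Ubd, against 5.33% and 22.6% of T lymphocytes, so the share in allogeneic 2 was near that of its lymphocytes; the part of free RNA in it was not tested.

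Ido1, which degrades tryptophan, rose from 0 and 2.52 CPM to 329 and 968 CPM (log2 fold change 9.03, SE 0.79, adjusted p = 8.62e-05). The chemokines Cxcl9 and Cxcl10, which draw activated T cells, were at 1.07 and 1.89 CPM each in the syngeneic sums. Cxcl9 was at 257 and 372 CPM in the allogeneic ones (log2 fold change 7.69, SE 0.45, adjusted p = 5.1e-06), and Cxcl10 at 127 and 218 CPM (6.83, SE 0.46, adjusted p = 8.49e-06). Thinned to 2000 UMIs, Cxcl9 was found in 15.6% and 26.9% of allogeneic members and in 1.33% and 1.89% of the T lymphocytes of the same libraries. For Cxcl10 these shares were 7.38% and 20% in members against 5.33% and 1.89% in lymphocytes, so that the share in allogeneic 1 was near that of its lymphocytes. The guanylate-binding protein Gbp2, which attacks intracellular pathogens, rose from 3.22 and 3.78 CPM to 116 and 216 CPM (log2 fold change 5.55, adjusted p = 2.34e-05), and Gbp4 from 1 and 0 UMIs to 40 and 105 UMIs, a ratio per UMI of 103 with a counting interval of 18.2 to 4086. The immunity-related GTPases Iigp1 and Igtp rose by 3.77 and 2.95 (log2). Irf1 itself was at 52.1 and 51.1 CPM in syngeneic and 100 and 217 CPM in allogeneic sums (log2 fold change 1.61, adjusted p = 0.0286). Tgtp1 and Tgtp2 rose as well, but they are near-identical copies whose reads may be split between them.

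T and NK cell transcripts, which the rule does not remove beyond Ptprc, moved with this response at a low level. The 8 markers summed to 1.67 and 1.31 unscaled CPM in syngeneic members and to 5.65 and 33.8 in allogeneic ones, with 6, 6, 5 and 0 of the 8 at 0. Their part in the result was not tested. The interferon-gamma list summed to 675 and 625 unscaled CPM in the syngeneic and 2853 and 4006 in the allogeneic members. Without allogeneic 2, 21 of 22 tested genes of the list were higher, and in members with at least 1% goblet UMIs 13 of 21 were. Without syngeneic 1 it was 13 of 26 and without syngeneic 2 it was 15 of 26.

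The promoters of the genes that rose were read for 2 short motifs that interferon-activated factors are known to bind. These are the gamma-activated site TTCNNNGAA and the core of the interferon-stimulated response element, which is GAAA, any 2 bases and GAAA, bound by Irf factors; both strands of the 250 bases before and 50 bases after each RefSeq start were searched. Of the 90 genes that rose, 73 were in the promoter table, and 17.8% of those held the first motif, 23.3% the second and 30.1% either one. Over all 27025 promoters the shares were 8.47%, 3.49% and 11.4%, and over the 7119 matched tested genes they were 6.80%, 3.12% and 9.36%. Among the 43 matched genes that fell outside the rule 11.6% held either one. The promoters of Ubd and Cxcl9 held neither motif, and Ido1, Gbp4 and Ly6a were not in the promoter table. A match is a stretch of letters and not a shown site of binding. The 250 bases before the start of Cxcl10 and of Irf1 are printed as an example of each motif, 5′ to 3′ on the strand of the gene, from RefSeq on GRCm38.p6. Capitals mark the match, which begins 213 bases before the start in Cxcl10 and 90 bases before it in Irf1.
Cxcl10, chr5:92348890-92349139, minus strand: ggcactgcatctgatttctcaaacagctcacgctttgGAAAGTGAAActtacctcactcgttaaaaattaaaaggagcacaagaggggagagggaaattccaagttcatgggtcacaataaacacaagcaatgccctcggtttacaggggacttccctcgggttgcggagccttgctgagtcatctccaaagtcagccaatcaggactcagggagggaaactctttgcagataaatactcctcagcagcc
Irf1, chr11:53769764-53770013, plus strand: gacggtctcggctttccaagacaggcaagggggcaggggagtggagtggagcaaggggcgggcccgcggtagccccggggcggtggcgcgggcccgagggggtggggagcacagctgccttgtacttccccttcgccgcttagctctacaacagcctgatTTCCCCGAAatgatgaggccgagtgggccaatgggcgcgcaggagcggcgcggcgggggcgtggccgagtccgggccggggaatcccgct

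Antigen presentation rose with it. Of 17 tested genes of MHC class I presentation, 9 were higher and none lower, with a median log2 fold change of 1.6. H2-Q7, a nonclassical class I chain, was at 20.9, 22.7, 264 and 257 CPM (log2 fold change 3.57, SE 0.29, adjusted p = 4.01e-05). Its neighbour H2-Q6 is so similar that reads could be split between the pair. B2m, the light chain of all class I molecules, was at 425, 419, 1588 and 2212 CPM (2.16, SE 0.32, adjusted p = 0.00402), and the peptide transporter Tap1 at 53.2, 47.9, 201 and 213 CPM (2.03, adjusted p = 0.00151). Of 8 tested genes of class II presentation 6 were higher, with a median log2 fold change of 1.62. The invariant chain Cd74 was at 1773, 1588, 4429 and 6386 CPM (1.68, SE 0.32, adjusted p = 0.0205), H2-Aa at 344, 307, 1010 and 1205 CPM (1.76, adjusted p = 0.0118) and H2-Eb1 at 289, 251, 962 and 1073 CPM (1.91, adjusted p = 0.0065). Without syngeneic 1 the class I list had 3 and the class II list 1 gene past the threshold, and without syngeneic 2 they had 4 and 1. The log2 fold change of Cd74 was then 1.75 (adjusted p = 0.826) and 1.61 (adjusted p = 0.93).

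**Figure D3:**
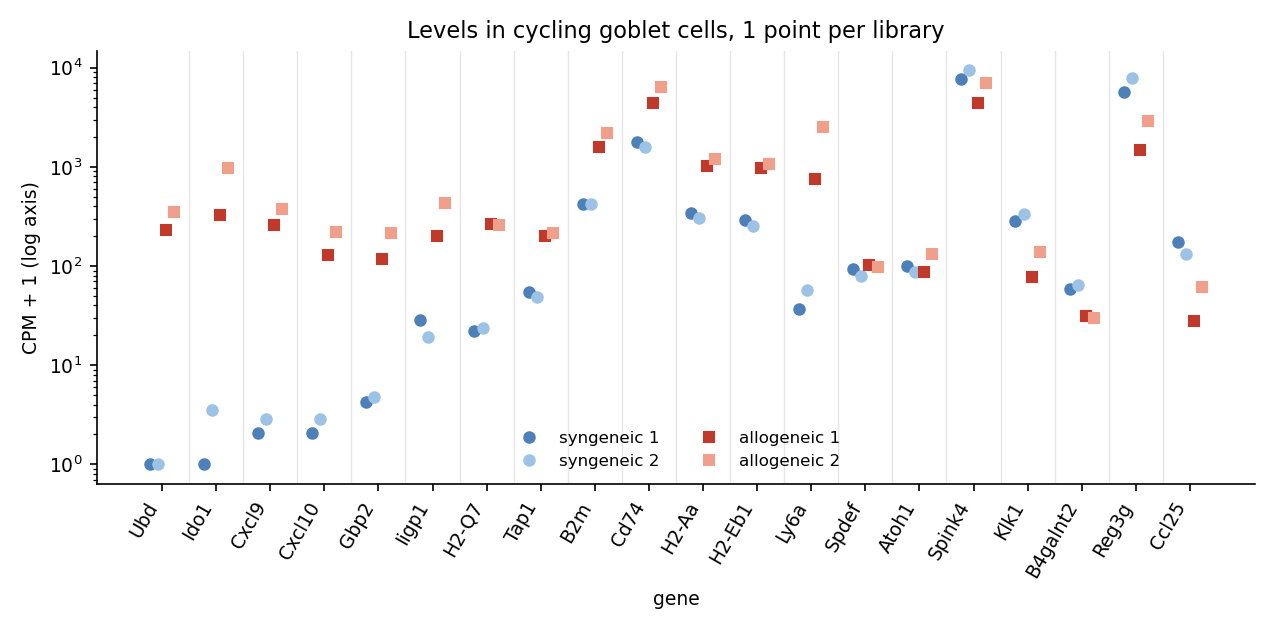
Levels of 20 genes in the summed members of each library, as CPM plus 1 on a log axis; circles are syngeneic and squares allogeneic libraries. From Ubd to Ly6a both squares stand above both circles, Spdef and Atoh1 overlap or lie close, and from Spink4 to Ccl25 both squares stand below both circles.

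Genes shared with antiviral defence rose in part. Of 16 tested, 7 were higher, among them Bst2, which tethers budding virions (26.3, 38.5, 130 and 234 CPM, log2 fold change 2.49, adjusted p = 0.00189), and Isg15 (2.15, 1.89, 11 and 19.2 CPM, 2.88, adjusted p = 0.0156). Of 11 tested genes of the regeneration list, which covers epithelial repair states, 2 were higher, with a median log2 fold change of 1.55. In 9 of the 11 both allogeneic libraries were above both syngeneic ones, against 19.9% of all tested genes. Ly6a, also called Sca-1, was at 36.0, 56.1, 754 and 2551 CPM (log2 fold change 5.15, SE 0.56, adjusted p = 0.000352). The T lymphocytes of the allogeneic libraries held Ly6a at 104 and 683 unscaled CPM, a measure without the scaling of the member values. The keratinocyte envelope gene Sprr2a3 was at 27.9, 13.9, 77.8 and 196 CPM (2.69, adjusted p = 0.00573).

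**Figure D4:**
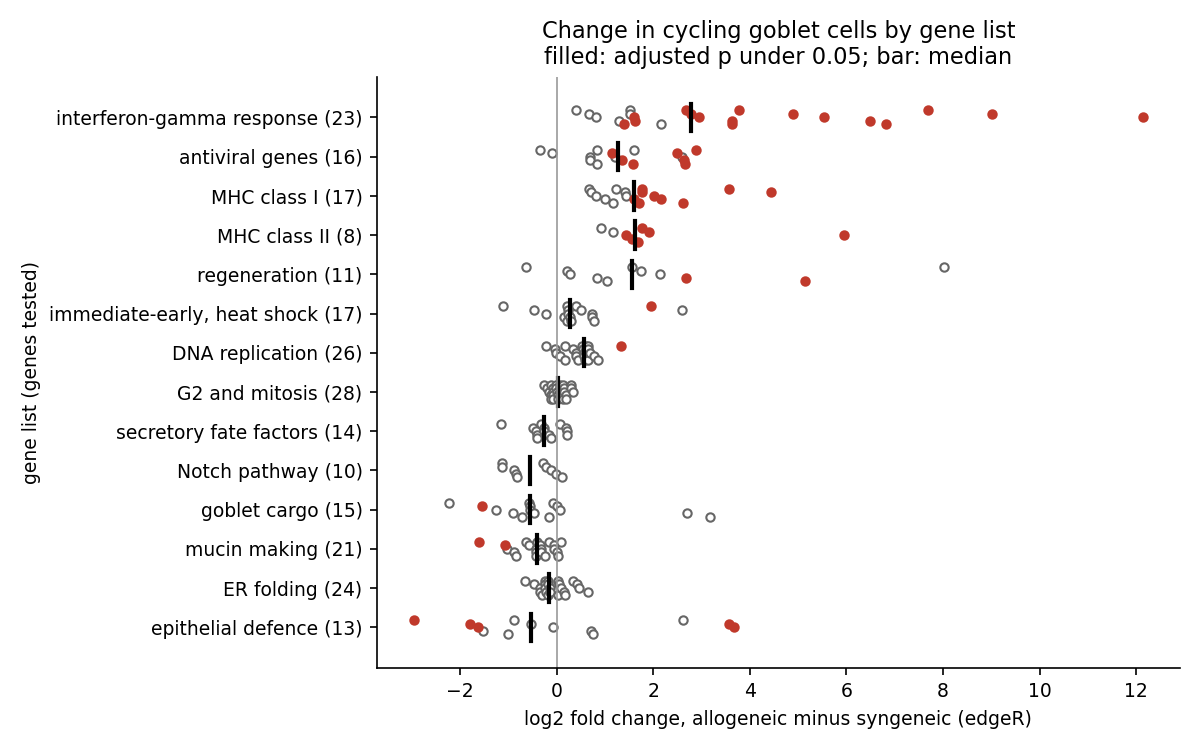
Log2 fold change (allogeneic minus syngeneic, x axis) of each tested gene in 14 gene lists (y axis, number tested in brackets) in cycling goblet cells; filled points have an adjusted p under 0.05 and bars are list medians. The interferon-gamma, antiviral and MHC lists lie to the right of 0 with medians from 1.28 to 2.78, while the medians of the mitosis and fate factor lists are 0.03 and -0.26.

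No factor of the secretory fate passed the test. None of 14 tested was higher or lower, with a median log2 fold change of -0.26 and a range of -1.15 to 0.22; DESeq2 called none either. Atoh1 was at 99.3, 87.0, 86.5 and 131 CPM (0.22, SE 0.26) and Spdef at 92.3, 78.2, 101 and 96.1 CPM (0.21, SE 0.24). Foxa3, which supports goblet differentiation, was at 107, 111, 57.1 and 107 CPM (-0.40, SE 0.29), and Gfi1, which holds secretory cells apart from the endocrine fate, at 11.3, 8.20, 6.34 and 7.54 CPM (-0.49, SE 0.41). In 6 of the 14 both allogeneic libraries were below both syngeneic ones, against 21% of all tested genes. In 2 of the 14 both were above, against 19.9% of all tested genes. A p that misses the threshold does not show equal levels. With 1 allogeneic library left out, 5 and 3 of the 14 were called, of which 1 was higher each time.

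None of 10 tested Notch genes passed the test, with a median of -0.55. In 6 of the 10 both allogeneic libraries were below both syngeneic ones, against 21% of all tested genes. The receptor Notch1 was at 19.3, 14.5, 8.07 and 7.54 CPM (-1.13, SE 0.36, adjusted p = 0.198). The ligand Dll1, which secretory progenitors show to their neighbours, was at 25.8, 33.4, 20.2 and 13.9 CPM (-0.82, SE 0.31, adjusted p = 0.313). The feedback gene Nrarp was at 36.5, 31.5, 20.2 and 18.1 CPM (-0.84, SE 0.27, adjusted p = 0.192), while the target Hes1 was at 49.9, 58.0, 51.3 and 48.2 CPM (-0.12, SE 0.23).

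Few genes of goblet cargo and of mucin making passed the test. Both allogeneic libraries were below both syngeneic ones in 9 of 15 cargo genes and in 11 of 21 mucin-making genes. Over all tested genes the share was 21%. Of 15 tested cargo genes outside the rule 1 was lower, the kallikrein Klk1 (280, 334, 76.1 and 136 CPM, log2 fold change -1.53, SE 0.32, adjusted p = 0.0286), and the median was -0.55. Itln1, an intelectin that binds microbial sugars, was at 1548, 2043, 713 and 789 CPM (-1.26, adjusted p = 0.068). Retnlb, an antimicrobial goblet peptide, went the other way without passing, at 36.0, 56.1, 111 and 733 CPM (3.18, adjusted p = 0.242), with allogeneic 2 far above the rest. Ang4, an angiogenin with antimicrobial action, did so too, at 180, 19.6, 555 and 765 CPM (2.71, adjusted p = 0.342). Of 21 mucin-making genes 2 were lower, the calpain Capn9 (-1.6, adjusted p = 0.0465) and the glycosyltransferase B4galnt2 (58.0, 63.7, 30.0 and 28.6 CPM, -1.06, adjusted p = 0.0433), with a median of -0.40. None of the 3 passed in members with at least 1% goblet UMIs, where the log2 fold change was -1.06 for Klk1, -0.97 for Capn9 and -0.60 for B4galnt2. The content of goblet RNA chose the members and differed between the groups, so these lists are not independent of it. Of 24 genes of protein folding in the endoplasmic reticulum none passed (median -0.15).

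Few cell-cycle genes outside the rule passed the test. None of 28 genes of G2 and mitosis did, with a median of 0.03 and a range of -0.25 to 0.35; Hmgb2, a chromatin protein, was at 1471, 1467, 1584 and 2055 CPM. Of 26 genes of DNA replication 1 was higher, Rrm2, the small subunit of ribonucleotide reductase (37.0, 47.9, 78.4 and 135 CPM, log2 fold change 1.33, SE 0.29, adjusted p = 0.0393; by DESeq2 1.35, adjusted p = 0.0588). The median of the list was 0.56. In 19 of the 26 both allogeneic libraries were above both syngeneic ones, against 19.9% of all tested genes. Pcna, the sliding clamp, was at 67.6, 63.7, 104 and 97.6 CPM (0.62, SE 0.23, adjusted p = 0.313). Of 12 genes that restrain the cycle 1 was higher, the inhibitor Cdkn1a (28.5, 20.2, 61.1 and 59.9 CPM, 1.30, SE 0.26, adjusted p = 0.0238), and none of 8 further p53 targets passed. DESeq2 did not call Cdkn1a (1.32, adjusted p = 0.0999). Without syngeneic 1 and without syngeneic 2 the edgeR adjusted p was 0.110 and 0.593 for Cdkn1a and 0.832 and 0.204 for Rrm2.

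In epithelial defence 2 of 13 tested genes rose and 3 fell. The antimicrobial lectins Reg3a (23.1, 27.1, 2.88 and 3.39 CPM, log2 fold change -2.96, SE 0.39, adjusted p = 0.00189) and Reg3g (5714, 7849, 1484 and 2915 CPM, -1.64, SE 0.37, adjusted p = 0.0463) fell, as did Ccl25, which draws T cells to the small intestine (174, 132, 27.1 and 59.9 CPM, -1.80, adjusted p = 0.0162). Reg3g was also counted in lymphocytes, with 10836, 2111, 503 and 2419 unscaled CPM in T lymphocytes, of which there were 9, 20, 154 and 104. It lost its call in 7 of 19 alternatives, among them those without members with Car1 (adjusted p = 0.0734), without syngeneic 1 (0.382), without syngeneic 2 (0.996) and at a goblet limit of 1% (0.395). Cxcl16, a chemokine for T cells, rose from 1.61 and 0.631 CPM to 12.7 and 18.1 CPM (3.68, adjusted p = 0.00538). Saa1 passed too, with 0, 6, 49 and 42 UMIs, but 3 cells held more than 50% of its counts.

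The 3 largest falls rested on single cells. Cck, Gcg and Nts, hormones of enteroendocrine cells, had 47, 43 and 30 UMIs in syngeneic 1, of which 1 cell each held 45, 43 and 30. In syngeneic 2 they had 30, 108 and 106 UMIs, of which 1 cell each held 30, 106 and 104. In the allogeneic libraries they had at most 1 UMI. These falls are therefore about 4 syngeneic members that each held over 10 UMIs of these hormones. Without those cells 91 genes were higher and 60 lower. Over all 145 called genes outside the rule, 3 cells held more than 50% of the counts of only Cck, Gcg, Nts and Saa1. Falls spread over many cells included Tac1, the tachykinin precursor (53, 88, 14 and 9 UMIs in 32, 57, 8 and 9 cells, log2 fold change -2.95, adjusted p = 0.005), and Tnfsf13os, an antisense transcript (38.7, 37.8, 8.65 and 6.03 CPM, -2.41, adjusted p = 0.00189), whose reads cannot be told apart from those of its partner Tnfsf13 unless counting used strand, which is not stated in the sources used here.

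The allogeneic effect was then compared with that in other cycling cells of the same libraries, by an interaction term in a model that blocks on library. It differed for 109 of 10163 genes (1.07%), 28 larger in members (0.276%) and 81 smaller (0.797%). In their own test 209 genes of the other cycling cells were higher (2.07%) and 129 lower (1.28%) after allogeneic transplant. Of 26 tested genes of the interferon-gamma list none had a difference that passed; without allogeneic 1 there were 1 larger and 1 smaller in members, and without allogeneic 2 there was 1 larger.

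Class II presentation rose more in cycling goblet cells than in other cycling cells. The difference passed for 6 of 8 genes, each larger in members. Cd74 was at 2674, 2679, 3945 and 5786 CPM in other cycling cells, a log2 fold change of 0.85 against 1.68 in members (difference 0.80, SE 0.05, adjusted p = 9.07e-16). H2-Eb1 differed by 0.76 (SE 0.08, adjusted p = 1.55e-09) and H2-Aa by 0.68 (SE 0.07, adjusted p = 9.32e-09). The class II list summed to 3138, 2826, 8646 and 8836 unscaled CPM in members and to 4644, 4534, 7818 and 8192 in other cycling cells, so that members were lower in the syngeneic libraries and somewhat higher in the allogeneic ones. In non-cycling goblet-rich cells it summed to 1831, 1571, 10188 and 8232 unscaled CPM, with a median log2 fold change of 2.30. Higher class II levels after allogeneic transplant were thus not particular to goblet cells that divide. Among class I genes 4 of 17 had a larger effect in members than in other cycling cells, B2m by 0.42 (adjusted p = 5.12e-05). It was 1 of 17 without syngeneic 2, without allogeneic 2 or without cells over 20000 UMIs. Among members with 0.5 to 2% goblet UMIs, a window set after the data were seen to bring the groups to a closer goblet content, 5 of the 8 class II genes still differed. Without any 1 library it was 4 to 6 of 8.

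Immediate-early genes, which respond within minutes to stress or growth factors, showed the reverse. Of 17 genes of immediate-early and heat shock response 6 differed, all smaller in members. The median log2 fold change of the list was 0.28 in members, 1.25 in other cycling cells and 0.29 in non-cycling goblet-rich cells. Fos was at 181, 175, 195 and 228 CPM in members, a log2 fold change of 0.24 against 1.79 in other cycling cells (difference -1.58, SE 0.17, adjusted p = 6.07e-09). Fosb differed by -2.47 (adjusted p = 0.000717) and Jun by -0.93 (adjusted p = 1.29e-05), and Atf3, Egr1 and Dusp1 by -2.27, -2.09 and -2.11. In the window of goblet content 5 of the 17 still differed, and without any 1 library 5 to 7 did. With Agr2 left out of the goblet sum it was 2 of 17. In the other cycling cells T and NK markers summed to 0.674, 33.1, 140 and 182 unscaled CPM and colonocyte markers to 57.3, 34.4, 13.2 and 964, and their part in these differences was not tested. Of the list only the heat shock gene Hspa1b was called in members alone (12.9, 9.46, 56.5 and 32.0 CPM, 1.95, adjusted p = 0.0162), and it has a near-identical copy, Hspa1a.

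**Figure D5:**
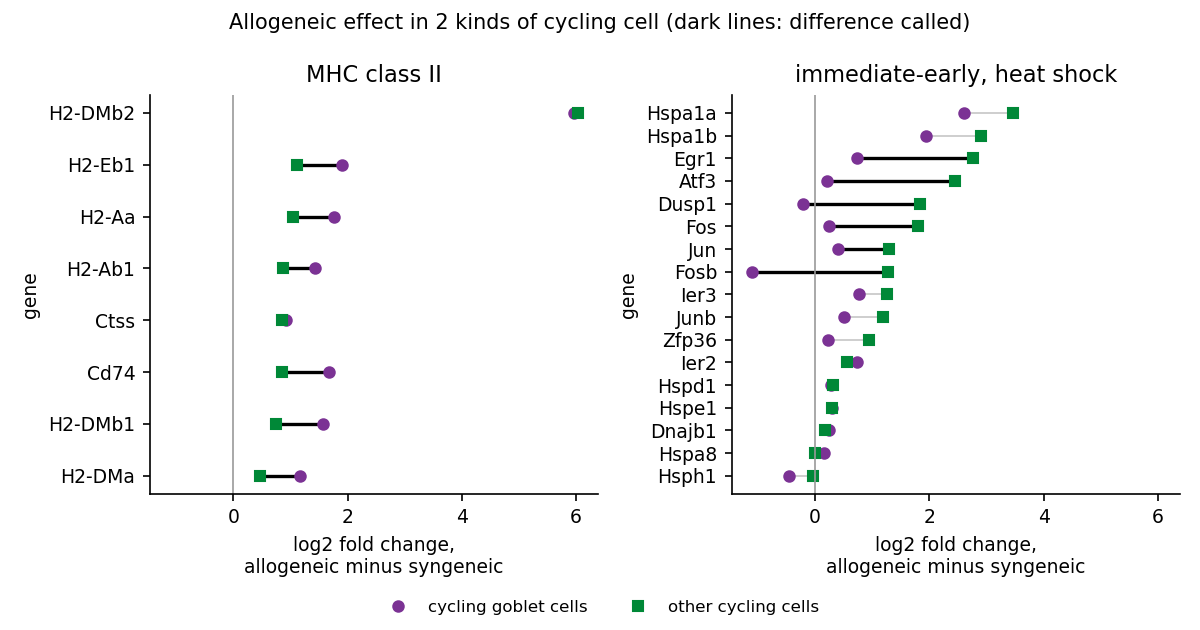
Log2 fold change (allogeneic minus syngeneic, x axis) of MHC class II genes (left) and of immediate-early and heat shock genes (right) in cycling goblet cells (circles) and other cycling cells (squares); a dark line joins a gene whose difference passed the test. The 6 dark class II lines have the circle on the right and the 6 dark immediate-early lines have it on the left.

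Regeneration genes differed less firmly. Of 12 tested, 5 had a smaller effect in members, among them Anxa3 by -2.66 and Areg, a growth factor, by -2.39. None of 11 did in the window of 0.5 to 2% goblet UMIs, 6 of 13 did at a limit of 1%, and 3, 1, 5 and 2 did without each library in turn. The log2 fold change of Spdef was 2.41 in other cycling cells and 0.21 in members (difference -2.28, adjusted p = 0.00108), and 4 of 15 cargo genes differed likewise. Levels of Spdef were low in other cycling cells, at 1.94, 1.29, 6.70 and 11.2 CPM. Other cycling cells of the allogeneic libraries included more cells just under the limit, with 18 and 44 cells at 0.2 to 0.3% goblet UMIs against 9 and 6 in the syngeneic libraries. The part of such cells in these differences was not tested. Neat1, a nuclear noncoding RNA, was at 403, 363, 348 and 168 CPM in members with a log2 fold change of -0.57 against 0.54 in other cycling cells (difference -1.19, SE 0.12, adjusted p = 3.59e-09).

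Against non-cycling goblet-rich cells the effect differed for 12 of 9033 genes (0.133%), 1 of them larger (0.0111%) and 11 smaller (0.122%) in members. The effect on Ido1 was larger in members by 4.42 (log2). For Sult1b1, Sult1d1 and Car4, enzymes of absorptive cells, the effect was lower in members (differences of -3.42, -2.28 and -3.03). The log2 fold change of Sult1b1 was -1.90 in members and 1.49 in the non-cycling cells. In the non-cycling cells the enterocyte markers summed to 5671, 6058, 2500 and 23516 unscaled CPM and the colonocyte markers to 106, 83.9, 81.7 and 1733, with allogeneic 2 far above the rest. In members these lists summed to 904, 1161, 365 and 1022 and to 46.2, 37.2, 40.2 and 315 unscaled CPM. The part of these markers in the differences was not tested. In their own test, none of 6982 genes of the non-cycling goblet-rich cells passed in edgeR, where 613 had an unadjusted p under 0.05; DESeq2 was not run on them. Their sums were smaller, at 980167, 870577, 379558 and 925734 UMIs, and the median change of the interferon-gamma list in them was 1.98.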

How the data were processed

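Droplet-based single-cell RNA sequencing was done on small-intestinal crypt cells of 2 syngeneic and 2 allogeneic pools. The authors deposited raw UMI counts for every gene in every barcode. The submitters' processing notes name Cell Ranger 2.1.1 and mm10, while the matrices give software version 3.1.0 per the file headers; how barcodes were kept is not given in the sources used here. Dense copies of the counts were not used. The members and the gene lists were chosen with earlier results of these data known.

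Counts were summed over members per library, and likewise over other cycling and non-cycling goblet-rich cells. After filterByExpr and TMM scaling, the sums were tested in edgeR 4.0.16 (robust quasi-likelihood fit, R 4.3.3), allogeneic against syngeneic, with a Benjamini-Hochberg threshold of 0.05 over all genes tested. Differences of effect were fitted with library as a block. DESeq2 1.42.0 was an alternative. Shares were compared by exact permutation (scipy 1.17.1), and intervals are 95% Clopper-Pearson. Where a count of 0 is said to allow a share of up to some value, that value is 3 counts divided by the number of cells. Scrublet ran in scanpy 1.11.5, and called doublets stayed in. The fits were tested on simulated data. The edgeR p-values rest on the spread between these pools, with the variance of each gene drawn towards that of other genes. Difference tests block on library, so they rest on how the contrast of the cell groups varied between pools of the same transplant. With 1 library left out, the group with 1 pool has no spread of its own.

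Named are the genes of the rule, genes from the 12 largest rises and 12 largest falls, genes from 16 lists (the 4 of smallest p, any past the threshold and up to 4 by level), fate and Notch genes, and the 6 leading genes of each difference test. Other names, among them Sct, Mmp7, Gcnt3 beside other cells, and genes given for their difference between cell groups, were chosen after their values were seen. Of 31053 feature IDs 30934 matched GENCODE M21. Alternatives changed the scaling, filter, tool, limits of the rule and libraries; the window of 0.5 to 2% goblet UMIs and the fits without members rich in hormones or holding Car1 were added after the data were seen.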

Additional observations from a re-analysis of the deposited data

Results flagged for a closer look

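The allogeneic effect differed between cell populations, by a test of the difference itself, for 12 named genes. Members against other cycling cells, the log2 differences were 0.80 for Cd74, 0.76 for H2-Eb1 and 0.68 for H2-Aa, all larger in members. They were -1.19 for Neat1, -1.58 for Fos and -1.01 for Fxyd3, all smaller in members. Cd74, H2-Eb1, H2-Aa and Neat1 kept their call in every alternative run. Fos lost it with Agr2 left out of the goblet sum (adjusted p = 0.0524) and at 10 cycling UMIs (adjusted p = 0.189), and Fxyd3 at a goblet limit of 1% (adjusted p = 0.686).

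Members against non-cycling goblet-rich cells, the log2 difference was 4.42 for Ido1. It was -3.42 for Sult1b1, -2.04 for Smim24, -4.04 for 1810065E05Rik, -3.03 for Car4 and -2.28 for Sult1d1. Sult1b1, Sult1d1 and Car4 are genes of absorptive cells, and Car4 was at 18.3, 4.41, 2.31 and 18.8 CPM in members, so that the groups overlapped there. Each of these 6 lost its call in at least 1 alternative, and Ido1 did so without syngeneic 1 (3.51, adjusted p = 0.200). Without library allogeneic 2, in which Car1 was counted, Car4 differed by -2.15 (adjusted p = 0.358) and Sult1b1 by -2.41 (adjusted p = 0.0511). Ido1 (4.56, adjusted p = 3.06e-21), Smim24 (-1.68, adjusted p = 2.08e-13) and Sult1d1 (-1.59, adjusted p = 0.0216) kept their call without it, and 1810065E05Rik turned to 4.30 (adjusted p = 0.803).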

How the results depend on the processing

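The count of genes higher in allogeneic members (90) was 221 with no filter and 49 at a goblet limit of 1%, and 51 to 1556 when 1 library was left out. The count of lower genes (64) was 33 by DESeq2, 180 with no filter, 29 and 14 at goblet limits of 0.5% and 1%, 23 with Agr2 left out of the goblet sum, 33 without cells over 20000 UMIs, and 27 to 993 when 1 library was left out. Differences against other cycling cells (109) were 52 at a goblet limit of 1%, 60 without Agr2 in the sum and 56 in the window of 0.5 to 2%, and 42 to 148 when 1 library was left out. Differences against non-cycling goblet-rich cells (12) were 22 at a limit of 0.5%, 29 without Agr2, 6 without called doublets, 3 without cells over 20000 UMIs, and 6 to 1603 when 1 library was left out. The cause was not tested.

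The difference in share of kept cells (-0.114 points) was -1.22 and -2.51 at limits of 0.5% and 1% and -2.12 without Agr2, and -0.611 to 0.382 when 1 library was left out. That in share of cycling cells (-4.45 points) was -8.88, -13.8 and -12.8, and -7.18 to -1.72. Thinning to 2000 UMIs, which leaves fewer molecules per cell, lowered the mean share of members with Spdef from 30.0% to 17.6% and with Atoh1 from 33.5% to 16.4%.

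Of 162 named genes outside the rule 68 passed the threshold, 25 of them in every alternative in which they were tested and 35 without each library in turn. Without allogeneic 2, the heat shock gene Hspe1 turned to -0.36 (adjusted p = 0.0470), against 0.76 without allogeneic 1,, and the difference for 1810065E05Rik against non-cycling goblet-rich cells to 4.30 (adjusted p = 0.803), against -4.33 without allogeneic 1. No paired analysis was possible because each library pools other mice and no label ties a syngeneic to an allogeneic library.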

Other observations

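Within the allogeneic libraries, class I genes took 0.898% of the summed UMIs of members with 0.3 to 1% goblet UMIs and 0.896% at 2% or more in allogeneic 1, and 1.01% and 1.05% in allogeneic 2. The interferon-gamma list took 0.271% and 0.175% in allogeneic 1 and 0.420% and 0.360% in allogeneic 2. Ly6a was at 909 and 542 unscaled CPM in allogeneic 1 and at 2173 and 2306 in allogeneic 2. These are values of single libraries, given without a test.

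Tuft markers summed to 20.6, 26.1, 13.2 and 7.73 unscaled CPM in members and to 65.7, 30.9, 30.3 and 7.84 in other cycling cells. Stromal markers summed to 2.78, 5.23, 0.628 and 2.58 unscaled CPM in members. Secretin (Sct), an enteroendocrine hormone, was at 173, 149, 98.0 and 139 CPM in members and at 16.5, 10.8, 12.0 and 19.5 CPM in other cycling cells. Mmp7, a Paneth protease, was at 702, 817, 1644 and 1616 CPM in members (log2 fold change 1.10, edgeR adjusted p = 0.109).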
